A study of Mus musculus with 2 samples.

Results

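The mouse miR-7 genes Mir7-1 (also written Mir7a-1), Mir7-2 (Mir7a-2) and Mir7b were described together with Mir671 in small RNA from adult hippocampus. They were chosen by gene symbol as the microRNAs (miRNAs) that bind the brain circular RNA Cdr1as, and each symbol matched 1 of the 2202 miRNA genes in the deposited tables, so 4 genes were followed. The tissue came from wild-type C57BL/6 mice (strain B6NCrl) of 6 months of age and is labelled as a layer of the hippocampus, without saying which layer. The descriptions call the tissue male, although the sex field reads as not collected. There was 1 group of 2 libraries, numbered as biological replicates 1 and 2, with no treatment and no second condition. One donor identifier is given for both and no label names separate animals, so the difference between these 2 samples is possibly technical.

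miRNAs are short RNAs cut from hairpin precursors, and they repress messenger RNAs that pair with their seed, bases 2 to 8 of the mature strand. In brain, miR-7 is held by Cdr1as, a circular RNA with many sites for the miR-7 seed, whereas a long noncoding RNA known as Cyrano triggers the destruction of miR-7 through an extensively paired site. miR-671 pairs with Cdr1as over most of its length and directs its cleavage, which is why the 4 genes are treated as 1 circuit. miR-7 is also known from neuroendocrine cells of the pituitary, the hypothalamus and the pancreatic islets.

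The mature strands are shown first, because they decide which reads the gene counts can hold. They are given 5′ to 3′ from RefSeq (GRCm38.p6), with the seed in capitals. The strands from the 5′ side of the hairpin are listed before those from the 3′ side:
miR-7a-5p (Mir7-1 and Mir7-2): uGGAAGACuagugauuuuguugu
miR-7b-5p (Mir7b): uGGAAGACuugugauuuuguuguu
miR-671-5p (Mir671): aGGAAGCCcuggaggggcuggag
miR-7a-1-3p (Mir7-1): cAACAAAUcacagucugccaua
miR-7a-2-3p (Mir7-2): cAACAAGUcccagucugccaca
miR-7b-3p (Mir7b): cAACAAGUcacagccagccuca
miR-671-3p (Mir671): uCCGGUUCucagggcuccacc

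All 3 of these miR-7 genes have the same 5p seed, GGAAGAC, and no other gene with a RefSeq strand in the tables has it. A further gene named Mir7j, with 190 counts in replicate 1 and 182 in replicate 2, was not among the chosen symbols. Its hairpin holds neither the whole miR-7a-5p strand nor the whole miR-7b-5p strand. Mir7-1 and Mir7-2 yield an identical 5p strand of 23 bases. miR-7b-5p differs from it by 1 substitution over those 23 bases, A10U, counted from 1 at the 5′ end with the miR-7a base first, and is 1 base longer. The 3p strands differ more. miR-7a-1-3p and miR-7a-2-3p differ by 3 substitutions (A7G, A10C and U21C), the first of them inside the seed, so that miR-7a-2-3p has its 3p seed in common with miR-7b-3p and not with miR-7a-1-3p. The miR-671-5p seed, GGAAGCC, is separated from the miR-7 seed by 1 substitution, A7C, and no other gene with a RefSeq strand in the tables has either miR-671 seed.

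The hairpins set a limit on the miR-7a counts. Mir7-1 and Mir7-2 have a stretch of 24 bases in common that holds the whole 5p strand. A read of miR-7a-5p can be told apart between them only if it extends 1 base upstream or 2 bases downstream of the annotated strand. A read with several possible places was credited to no gene in these tables, so the counts of Mir7-1 and Mir7-2 hold only reads that were placed at 1 locus, such as those of the 3p strands. The longest stretch that Mir7b has in common with either of them is 14 bases, and Mir671 has at most 12 bases in common with any other annotated hairpin. Those 2 genes therefore do not carry this limit at the level of hairpin sequence. How many miR-7a-5p reads stood among the reads aligned to several places, which made up 43.8% of replicate 1 and 45.7% of replicate 2, cannot be told from the tables.

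Positions are on mm10 with GENCODE release M21. Mir7-1 (ENSMUSG00000065434.1, chr13:58392779-58392886, minus strand) lies in an intron of Hnrnpk, which encodes the RNA-binding protein hnRNP K, in all 12 of the overlapping Hnrnpk transcripts. Mir7-2 (ENSMUSG00000065609.1, chr7:78888277-78888373, plus strand) lies in no other annotated gene, and the nearest is Aen at 7481 bases. Mir7b (ENSMUSG00000065491.1, chr17:56242988-56243098, plus strand) is also outside other genes and begins 183 bases beyond the end of the long noncoding gene AC026385.1 on the same strand. Mir671 (ENSMUSG00000076387.1, chr5:24592114-24592211, plus strand) lies entirely within coding sequence of Chpf2, a gene of chondroitin sulphate synthesis, in 2 transcripts, and an exon of 1 Smarcd3 transcript overlaps it on the opposite strand. Short fragments of Chpf2 messenger RNA from this stretch would be counted as Mir671, and their part in its count was not tested. None of the 4 genes had another annotated miRNA gene within 10 kb.

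All 4 genes reached 10 CPM in each library and are called detected, against 13.7% of all genes. CPM is the count per 1000000 reads counted on miRNA genes, of which there were 4247092 in replicate 1 and 5041568 in replicate 2. Intervals are exact 95% binomial intervals and cover counting error only, since no molecular identifiers are named and PCR copies cannot be told from molecules. A gene with a count of 0 could stand at up to 3 counts, which is 0.706 CPM in the first library and 0.595 CPM in the second. No member had a read on the opposite strand.

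Mir671, the gene of the miRNA that cleaves Cdr1as, had 6672 counts in replicate 1 and 11519 in replicate 2. These correspond to 1571 CPM (1534 to 1609) and 2285 CPM (2243 to 2327), with a mean of 1928 ± 505 CPM (SD, n = 2). It ranked 63rd among the 2202 genes by mean CPM, 76th in replicate 1 and 57th in replicate 2. Replicate 2 was thus the higher library, with intervals that did not overlap.

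Mir7b was the miR-7 gene with the most counted reads, 8676 in replicate 1 and 7569 in replicate 2. This is a level of 2043 CPM (2000.1 to 2086) and of 1501 CPM (1468 to 1536), respectively, with a mean of 1772 ± 383 CPM (SD, n = 2) and rank 67. Here replicate 1 was the higher library, opposite to Mir671.

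Mir7-2 had 617 counts in replicate 1 and 884 in replicate 2. The levels were 145 CPM (134 to 157) and 175 CPM (164 to 187), with a mean of 160.3 ± 21.3 CPM (SD, n = 2) and rank 172. It went with Mir671 in being higher in replicate 2, by a smaller margin.

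Mir7-1, the copy inside Hnrnpk, had the fewest counts, 164 in replicate 1 and 132 in replicate 2. The levels were 38.6 CPM (32.9 to 45.0) and 26.2 CPM (21.9 to 31.0), with a mean of 32.4 ± 8.79 CPM (SD, n = 2) and rank 251. It was above the limit of detection in both libraries and, like Mir7b, higher in replicate 1.

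**Figure D1:**
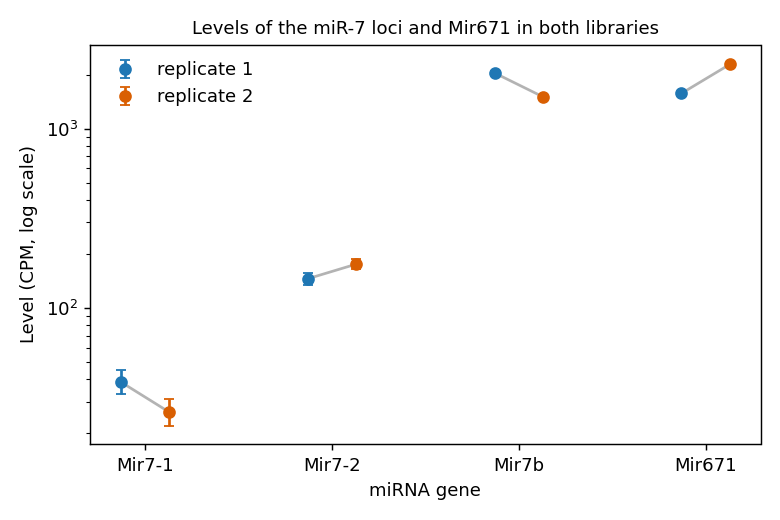
Level of each gene (CPM, log scale) in replicate 1 and replicate 2, with exact 95% binomial intervals as bars and a grey line joining the libraries. Mir671 and Mir7b lie between 1501 and 2285 CPM and exchange order between the libraries, whereas Mir7-2 (145 and 175 CPM) and Mir7-1 (38.6 and 26.2 CPM) lie below them in both.

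The order of the levels was Mir671, Mir7b, Mir7-2 and Mir7-1 by mean, and the first 2 could not be separated. In replicate 1 the count of Mir671 was 0.769 times that of Mir7b (0.745 to 0.794), and in replicate 2 it was 1.52 times (1.48 to 1.57). Per hairpin base the ratio was 0.871 in replicate 1 and 1.72 in replicate 2, so the order turned on this scale too. The library values of Mir671 and Mir7b overlapped, and no order between them holds beyond the spread of these 2 libraries.

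The other neighbours did not overlap. Mir7b exceeded Mir7-2 by 14.1 times in replicate 1 (12.96 to 15.3) and by 8.56 times in replicate 2 (7.98 to 9.19) in counts, and by 12.3 and 7.48 times per hairpin base. Mir7-2 exceeded Mir7-1 by 3.76 times in replicate 1 (3.16 to 4.50) and by 6.70 times in replicate 2 (5.57 to 8.10) in counts, and by 4.19 and 7.46 times per hairpin base. Both genes of a ratio were counted in the same 2 libraries. With 2 such pairs of values no exact permutation test can pass 0.05, so these ratios are given without a test. They compare reads placed at 1 locus, and for the miR-7a genes that leaves out the 5p reads that fit both loci.

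**Figure D2:**
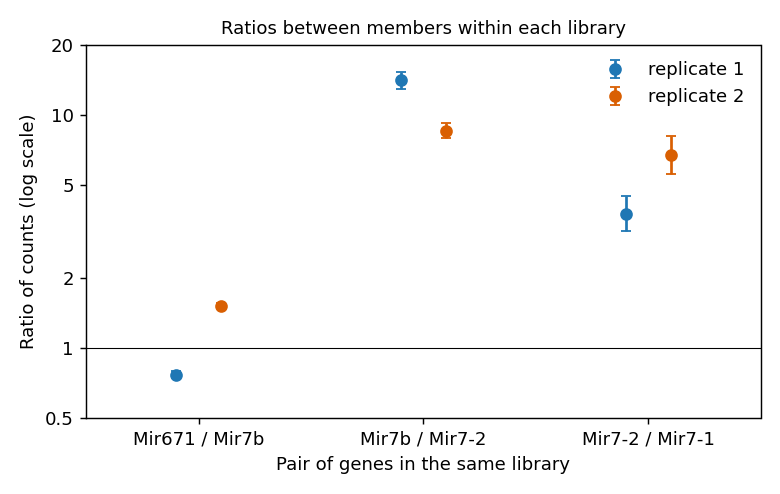
Ratio of counts (log scale) between neighbouring genes in the order of levels, within replicate 1 and within replicate 2, with exact 95% binomial intervals as bars and a line at a ratio of 1. The ratio of Mir671 to Mir7b lies on opposite sides of 1 in the libraries (0.769 and 1.52), and the other ratios lie above 1 in both.

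The split of the counted miR-7 reads among the 3 genes was taken next. Mir7b held 91.7% of them in replicate 1 (91.2 to 92.3%) and 88.2% in replicate 2 (87.5 to 88.8%). Mir7-2 held 6.52% (6.03 to 7.04%) and 10.3% (9.66 to 11.0%). Mir7-1 held 1.73% (1.48 to 2.02%) and 1.54% (1.29 to 1.82%), and its intervals overlapped. Most counted miR-7 reads thus came from the gene whose 5p strand is annotated at a single hairpin. These are shares of reads counted at 1 locus, not shares of mature miR-7. Summed over the 3 genes, miR-7 stood at 2227 CPM (2182 to 2272) against 1703 CPM (1667 to 1739) in the second library, with a mean of 1965 ± 370 CPM (SD, n = 2). The count of Mir671 was 0.706 times this sum in replicate 1 (0.684 to 0.728) and 1.34 times in replicate 2 (1.30 to 1.38).

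Each gene was then compared between the libraries by an exact binomial test, two-sided, on its counts, adjusted by Benjamini-Hochberg over the 522 genes with at least 10 counts. This test compares the reads of 2 libraries, not conditions, and holds counting error only. All 4 genes passed at 0.05, where 51.0% of the tested genes passed. Of these, 2 were higher in replicate 2 (28.2% of tested genes were called in that direction) and 2 were lower (22.8% of tested genes). The balance of all calls turned with the scaling, from 147 higher and 119 lower to 123 and 135 with TMM and 122 and 135 with DESeq2 size factors, whereas each of the 4 genes kept its direction and call. Mir671 was higher in replicate 2 by a log2 ratio of 0.54 (0.50 to 0.58, exact test, adjusted p = 1.8e-133), and Mir7-2 by 0.27 (0.12 to 0.42, exact test, adjusted p = 0.00088). Mir7b had a log2 ratio of −0.44 (−0.49 to −0.40, exact test, adjusted p = 1.2e-84) and Mir7-1 of −0.56 (−0.90 to −0.22, exact test, adjusted p = 0.0021).

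These differences lay within the spread of other genes between the same libraries. The 302 genes detected in both libraries had a median absolute log2 ratio of 0.36 and a median log2 ratio of 0.05. The absolute log2 ratio of Mir7-1 was above that of 68.2% of them, that of Mir671 above 66.9%, that of Mir7b above 56.6% and that of Mir7-2 above 40.4%. With the spread between the libraries included, as a biological coefficient of variation of 0.328 estimated over 422 genes, the exact test of edgeR called none of the 4 (adjusted p = 1 for each) and 1.15% of the tested genes. Unadjusted, its p-values for the 4 genes ran from 0.374 to 0.773, with 0 of 4 below 0.05, against 33 of 522 genes. The spread was estimated from these same 2 libraries, so a small difference between them could not have been called this way. Adapters were trimmed under a protocol whose version differs between the libraries per the labels, and this cannot be told apart from the library.

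**Figure D3:**
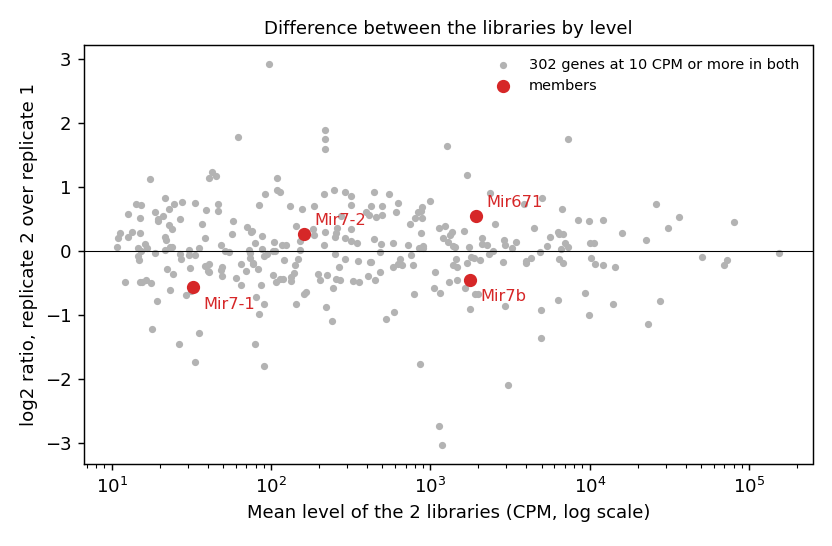
Log2 ratio of replicate 2 over replicate 1 against the mean level of the 2 libraries (CPM, log scale) for the 302 genes at 10 CPM or more in both, with the members in red. Mir671 and Mir7-2 lie above 0 and Mir7b and Mir7-1 below it, none farther from 0 than Mir7-1 at −0.56, while other genes lie farther out in both directions.

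Marker miRNAs of the cells a hippocampus dissection can hold were read beside this. Of all genes, 13.7% were detected, which is the share to set beside each list. Of the neuronal markers, 7 of 10 were detected, with a summed level of 49343 CPM in the first library and 31327 CPM in the second. The activity-induced gene Mir132 alone had 32072 and 14605 CPM of these sums. By the exact binomial test 3 of the 9 markers tested were higher in replicate 2 and 4 lower, where 28.2% and 22.8% of all tested genes were. The defining neuronal genes Mir124a-1, Mir124a-2 and Mir124a-3 had at most 8 counts in a library. Reads with several possible places were credited to no gene, and whether this removed reads of these 3 genes was not tested. Their counts therefore do not give the level of mature miR-124. The genes of miR-128, miR-138 and miR-219a among the markers have a mature strand in common with another gene. Sums that include them are of reads placed at 1 locus and do not give levels of mature miRNAs. For choroid plexus and ependyma, 5 of 6 markers were detected, at a sum of 11342 and 3408 CPM. By the exact binomial test 4 of these 6 were lower in replicate 2, where 22.8% of all tested genes were. Mir449a (17.7 and 28.0 CPM) was called higher, against the direction of the sum. For oligodendrocytes, 2 of 3 were detected (5817 and 8786 CPM), for microglia and leukocytes 3 of 5 (2926 and 2627 CPM), and for red cells 1 of 3 (18.8 and 23.8 CPM). Mir219a-2 alone had 3630 and 6444 CPM of the oligodendrocyte sum. In the microglia and leukocyte sum Mir150 had 2138 and 1949 CPM and Mir146 had 713 and 611 CPM. Mir223 (11.5 and 6.15 CPM) and Mir142 (7.77 and 6.35 CPM) were not detected. The endothelial gene Mir126a had 5706 and 7027 CPM. Mir144 was at 0 in replicate 1 and Mir124a-2 in replicate 2, no marker was at 0 in both libraries, and their part in the differences of the 4 genes was not tested. In bulk tissue, fewer cells of a type and less RNA per cell cannot be told apart.

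Since miR-7 is known from neuroendocrine cells, 6 other miRNA genes of such cells were set beside it. Of these, 5 of 6 were detected (83.3%, against 13.7% of all genes). By the exact binomial test 4 of 6 passed (66.7%, against 51.0% of all tested genes), 3 of them higher in replicate 2 and 1 lower. Of all tested genes, 28.2% were called higher and 22.8% lower. Mir375, an islet and pituitary miRNA, had 515 and 378 CPM in replicates 1 and 2. Its log2 ratio of −0.45 had the sign of that of Mir7b, whereas the 3 genes called higher had the sign of Mir671 and Mir7-2. Mir200b, an epithelial miRNA, had 93.0 and 345 CPM, and Mir429 of the same family had 143 and 160.3 CPM. The detected genes of the list had a median log2 ratio of 0.16, beside 0.05 for all detected genes. The 5 pituitary markers, a subset of this list, summed to 774 and 915 CPM, with 4 of 5 detected.

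The miR-7 genes were also set beside 9 genes of other miRNAs with a known transcript that triggers their destruction, as Cyrano does for miR-7. Of these, 8 of 9 were detected (88.9%, against 13.7% of all genes). By the exact binomial test 6 of 9 passed (66.7%, against 51.0% of all tested genes), 2 higher in replicate 2 and 4 lower. Of all tested genes, 28.2% were called higher and 22.8% lower. Mir221 had 13120 and 6552 CPM, Mir222 had 4948 and 1164 CPM, and Mir30c-2 had 273 and 314 CPM, in replicates 1 and 2. The summed miR-7 genes lay between Mir222 and Mir30c-2 by mean level in CPM. Mir30c-2, like Mir7-1 and Mir7-2, has a mature strand in common with another gene. The order is thus one of reads placed at 1 locus, not of mature miRNAs. The median log2 ratio of the detected genes of the list was −0.25, beside 0.05 for all detected genes.

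Mir7-1 and Mir7-2 were further set beside the other genes whose RefSeq mature strand is identical to that of another gene, whatever its sequence. There were 87 of them among the 969 genes with a RefSeq hairpin. Of the 87, 35 (40.2%) were detected, against 13.7% of all genes. The 13.7% also covers genes without a RefSeq hairpin, and the share among the 969 was not computed. By the exact binomial test 26 of 43 tested passed (60.5%, against 51.0% of all tested genes). The highest by mean CPM were Mir128-1 (6711 and 6155 CPM), Mir219a-2 (3630 and 6444 CPM) and Mir138-1 (3215 and 3336 CPM). The median level of the detected ones was 147 CPM, close to that of Mir7-2 and above that of Mir7-1. Of all 87, 33 had no count in either library.

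The genes nearest to each member in level were found by the Euclidean distance of log2 CPM over the 2 libraries. Mir7b lay closest to Mir98, a let-7 family gene, with 2050 and 1486 CPM (distance 0.015), and then to Mir379 of the imprinted Dlk1-Dio3 region with 1971 and 1329 CPM. For Mir671 they were Mir154 (1944 and 2249 CPM) and Mir30e (1456 and 1799.6 CPM), at a distance of 0.31 and 0.36. Mir7-2 was nearest to Mir429 and to the hypoxia-induced gene Mir210 (150.5 and 152 CPM), and Mir7-1 to Mir103-2 (37.9 and 24.6 CPM) and Mir214 (33.9 and 28.2 CPM). Over 2 libraries this likeness describes level alone.

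The RNAs that these miRNAs bind are not measured by miRNA counts, but their sites can be read from the transcripts of the same annotation. Cdr1as is formed from an exon of the noncoding gene C230004F18Rik, taken here as the shortest of its exons that spans the whole of Cdr1 on the other strand (chrX:61183248-61186174, plus strand, 2927 bases). This exon held 123 matches to the miR-7 seed, searched as GTCTTCC on both strands, all of them on the strand of C230004F18Rik and 0 on the other. They ran from base 26 to base 2851 of the exon with a median spacing of 18 bases, the smallest spacing was 17 bases and the largest 109. Of the 123, 34 were followed by an A, opposite base 1 of the miRNA. Among 16820 non-overlapping windows of the same length from the longest transcript of other genes, which leaves out transcripts shorter than the window, 23.6% held at least 1 match and none held more than 4 on the transcript strand, and on the opposite strand 27.7% held 1 and none held more than 12.

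The match to the miR-671-5p seed, searched as GGCTTCC on both strands, stood at 1 place in this exon, at base 2797, after most of the miR-7 matches. Of the windows of other genes, 27.7% held it on the transcript strand and 28.05% on the opposite strand. The motifs cannot overlap each other. Around it, 19 of the 23 bases of miR-671-5p could pair without a gap. The site is shown with the site in the same exon that paired best with the first 23 bases of miR-7b-5p (17 of 23 bases, the highest number without a gap), and with the site in the Cyrano gene, annotated as 1700020I14Rik, whose longest transcript of 8300 bases held 2 matches to the miR-7 seed. Capitals mark bases that can form Watson-Crick pairs with the miRNA:
Cdr1as exon with miR-671-5p, chrX:61186029-61186051, plus strand: tTCCAGCatCTCCAGGGCTTCCa
Cdr1as exon with miR-7b-5p, chrX:61183571-61183593, plus strand: tCcAgAAAAatcCAAGTCTTCCA
1700020I14Rik with miR-7b-5p, chr2:119602136-119602161, plus strand: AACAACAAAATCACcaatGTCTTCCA

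The forms of pairing differed between the RNAs. In 1700020I14Rik, 8 bases paired from the 5′ end of miR-7b-5p and 14 at its 3′ end, around 4 unpaired site bases and 2 unpaired miRNA bases. With miR-7a-5p the same site paired 8 and 13 bases. Since A10U falls among the 2 unpaired miRNA bases, both forms of miR-7 fit the site up to the extra base of miR-7b-5p. In the Cdr1as exon the best miR-7 site paired mainly at the seed side. These matches describe the reference sequence and show neither binding nor its effect on the levels above.

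**Figure D4:**
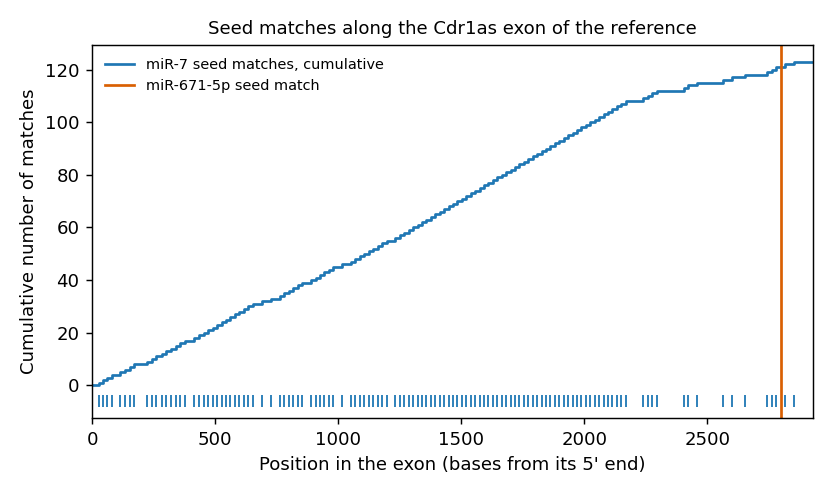
Cumulative number of matches to the miR-7 seed along the 2927 bases of the exon that forms Cdr1as, from its 5′ end, with each match as a tick and the miR-671-5p seed match as a vertical line. The 123 miR-7 matches rise almost steadily over most of the exon and thin out towards its 3′ end, where the miR-671-5p match at base 2797 lies.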

How the data were processed

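Small RNA from wild-type mouse hippocampus was analysed in 2 libraries of 1 group. The authors deposited raw read counts per annotated miRNA gene, and the file headers name mm10 and GENCODE M21. Which aligner and counter made them is not given in the sources here. Of 3 count columns, the one on the strand of the gene was used. The 4 summary rows (unaligned, aligned to several places, outside genes, ambiguous) held 61.8% of the reads of replicate 1 and 60.1% of replicate 2 and stayed out of library sizes and tests. CPM was computed over all gene rows. Log2 ratios used 0.5 added counts.

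Genes were compared with exact two-sided binomial tests and Benjamini-Hochberg adjustment across all 522 genes with at least 10 counts. A quasi-likelihood fit was not possible with 1 library on each side. As an alternative, the exact test of edgeR used the common dispersion of an intercept-only fit. The exact binomial test, its intervals and the site search were tested on simulated data. The simulated counts held counting error only, without the further spread seen between the real libraries, and the edgeR test was not simulated. The members and lists were chosen with earlier results of these data known. Genes named are the members, the 2 nearest in level to each, the highest 3 of each compared list, hosts and neighbours. The Mir124a genes, Mir142, Mir144, Mir223, Mir449a and Mir7j were named after their values were seen. RefSeq hairpins stood at the place of 969 of 2202 genes. Python 3.11.15, numpy 2.4.6, pandas 2.3.3, scipy 1.17.1, matplotlib 3.10.9, R 4.3.3, edgeR 4.0.16 and DESeq2 1.42.0 (size factors only) were used.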

Additional observations from a re-analysis of the deposited data

How the results depend on the processing

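All 4 genes kept the direction of their difference between the libraries under TMM scaling, DESeq2 size factors, scaling to all reads, the column without strand and 1 added count, and stayed past the threshold of the exact binomial test. The log2 ratios shifted by −0.07 with TMM and by −0.08 with DESeq2, and 258 and 257 genes were then called in place of 266. The exact test of edgeR, which includes the spread between the libraries, called 6 genes and 0 members. Its log2 ratios were −0.63 for Mir7-1, 0.20 for Mir7-2, −0.52 for Mir7b and 0.47 for Mir671. Scaled to 1000000 of all reads, the mean levels were 12.6 for Mir7-1, 62.8 for Mir7-2, 690.3 for Mir7b and 756 for Mir671, since all reads include those outside the counts. By CPM per hairpin base, the ranks were 268 for Mir7-1, 179 for Mir7-2 and 83 for Mir7b, and in the column without strand they were 232, 158 and 60. Without replicate 1 or replicate 2, the level is that of the other library alone. With the libraries left out in turn, levels ran from 26.2 to 38.6 CPM for Mir7-1, from 145 to 175 CPM for Mir7-2, from 1501 to 2043 CPM for Mir7b and from 1571 to 2285 CPM for Mir671. No paired analysis was possible because there is 1 group. Depth limits Mir7-1 most, with 132 to 164 counts, and 2 libraries limit every statement on spread.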

Other observations

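The density of miR-7 seed matches was also ranked over the longest transcript of every gene of at least 1000 bases. C230004F18Rik, whose exon forms Cdr1as, came first with 125 matches in 19658 bases (6.36 per kb), all but 2 of them in that exon, which alone held 42.0 per kb. The next were BC022960 with 10 matches in 1815 bases (5.51 per kb) and Gm47096 with 7 in 2086 bases (3.36 per kb), both shorter than the windows compared above. These genes were named after their values were seen, and their RNA levels in hippocampus were not analysed here.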
